A study of Homo sapiens with 8 samples.

Results

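The genes described here are the WNT ligands, their receptors and co-receptors, the secreted proteins that limit or strengthen the signal, and a small set of genes that respond to it. The rule that picks the members reads gene symbols only, although it was chosen with earlier results of these data known. All WNT, FZD, DKK, SFRP and RSPO symbols with a number were taken, together with LRP5, LRP6, LGR4, LGR6, RNF43, ZNRF3, AXIN2, NKD1, LEF1, TCF7, SP5 and NOTUM. This gave 65 probes of 50599 and 53 genes of 21524. They were measured on 8 one-color Agilent arrays of cells labelled as NGP, an established human neuroblastoma line. The cells had received either a mock construct or CFC1 cDNA by lentivirus, followed in both groups by puromycin selection. Each group had 4 arrays. Whether these came from separate cultures, and whether the selected cells were a pool or a clone, is not given in the labels. The p-values therefore reflect only how far these arrays differ within a group, and that variation may be technical. CFC1 encodes Cryptic, a membrane-bound co-receptor for Nodal and related ligands, and the comparison asks how it affects the transcripts of this line.

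WNT proteins are secreted, lipid-bearing ligands that bind Frizzled receptors together with LRP5 or LRP6. In the canonical branch this stops a cytoplasmic complex from marking beta-catenin for breakdown, and beta-catenin then joins TCF and LEF factors at target genes such as AXIN2 and SP5. The signal is known for its part in forming the neural crest, the embryonic tissue from which neuroblastoma derives.

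The deposited value of a probe is a logarithm set against an unstated baseline, and it was read as log2 although the base is not given in the sources used here. A value therefore shows differences between arrays for 1 probe and gives no level of expression, so levels of different genes cannot be compared. Each difference is the mean of the arrays labelled CFC1 minus the mean of the mock arrays (n = 4 in each group). It was tested with limma over all 21524 genes, and a gene was called when its Benjamini-Hochberg adjusted p was below 0.05. "Rose" and "fell" below mean called higher or lower in the arrays labelled CFC1. In RNA from whole cultures, fewer cells that express a gene and less RNA per cell cannot be told apart.

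The CFC1 probe did not stand higher in its own group. Its values were 0.47, 1.10, 0.12 and -0.03 in the mock arrays and 0.05, -0.69, -0.59 and -0.30 in those labelled CFC1, so that the groups overlapped at -0.03 and 0.05. limma put the difference at -0.80 (adjusted p = 0.0398). An exact two-sided permutation test over all 70 arrangements of the arrays returned p = 0.0571 (0.0286 is the lowest it can return). Every direction below therefore rests on the labels, and where the probe lies in the CFC1 transcript was not determined. CDK4 (-2.34), MDM2 (-1.92) and MYCN (0.16), which NGP is known to carry in many copies, were all called. The groups did not overlap at any of these 3 genes. Whether both groups hold the same cell line was not tested, and a difference between lines cannot be told apart here from an effect of the construct. Of 11 adrenergic neuroblastoma markers, 9 were measured and none of them rose, while 7 fell, and their mean value ran from 0.97 to 1.06 in the mock arrays and from -0.12 to 0.02 in the others. Of the 9 fibroblast and mural markers 1 rose and 7 fell, with mean values from 1.16 to 1.24 in the mock arrays and from -0.13 to -0.03 in the others. Among Schwann and glial markers 3 of 3 measured fell, among endothelial ones 2 of 5 fell and none rose, among epithelial ones 1 of 5 rose and 3 fell, and among immune ones 1 of 4 rose and 1 fell. Over all genes 57.9% were called, 29.7% higher and 28.2% lower. The called share was 77.8% for adrenergic, 88.9% for fibroblast and mural and 100% for Schwann and glial markers. It was 80% for epithelial, 40% for endothelial and 50% for immune markers. The part of these marker differences in the WNT results was not tested, and the table gives no level by which a marker could be called absent.

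Among the WNT genes, 8 of 19 ligands rose and 1 fell, or 47.4% called. Of 9 secreted antagonists 4 fell and 1 rose, or 55.6% called. Both shares lay below the 57.9% of all genes. A further list of 9 other antagonists, given below, had 4 higher and 3 lower, or 77.8% called. SP5, a transcription factor and direct WNT target, had the largest rise, 4.26 (SE 0.38), and RSPO4, which strengthens WNT signals, the largest fall, -3.80 (SE 0.31). Of the 53 genes, 18 rose, 16 fell and 19 did not pass. That is 64.2% called, where 57.9% of all genes were called, 29.7% higher and 28.2% lower. The median difference of the 53 was -0.14, beside -0.09 over all genes. In 31 of the 53 the groups did not overlap, where 56.5% of all genes did not. A call with no overlap and a difference of at least 1 was found for 13 members, 7 higher and 6 lower, or 24.5% of them, where 18.3% of all genes met this, 9.6% higher and 8.75% lower. The adjusted p-values of these 13 in limma ran from 8.22e-10 to 2.88e-05. All 13 kept their call and direction under each of the 18 alternatives tried, among them leaving out any array. Not all kept a difference of at least 1. At their smallest, SFRP1 stood at -0.81, WNT5A at 0.91, FZD7 at -0.98 and AXIN2 at 0.98. The rise of SP5 was 2.96 after quantile normalization.

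**Figure D1:**
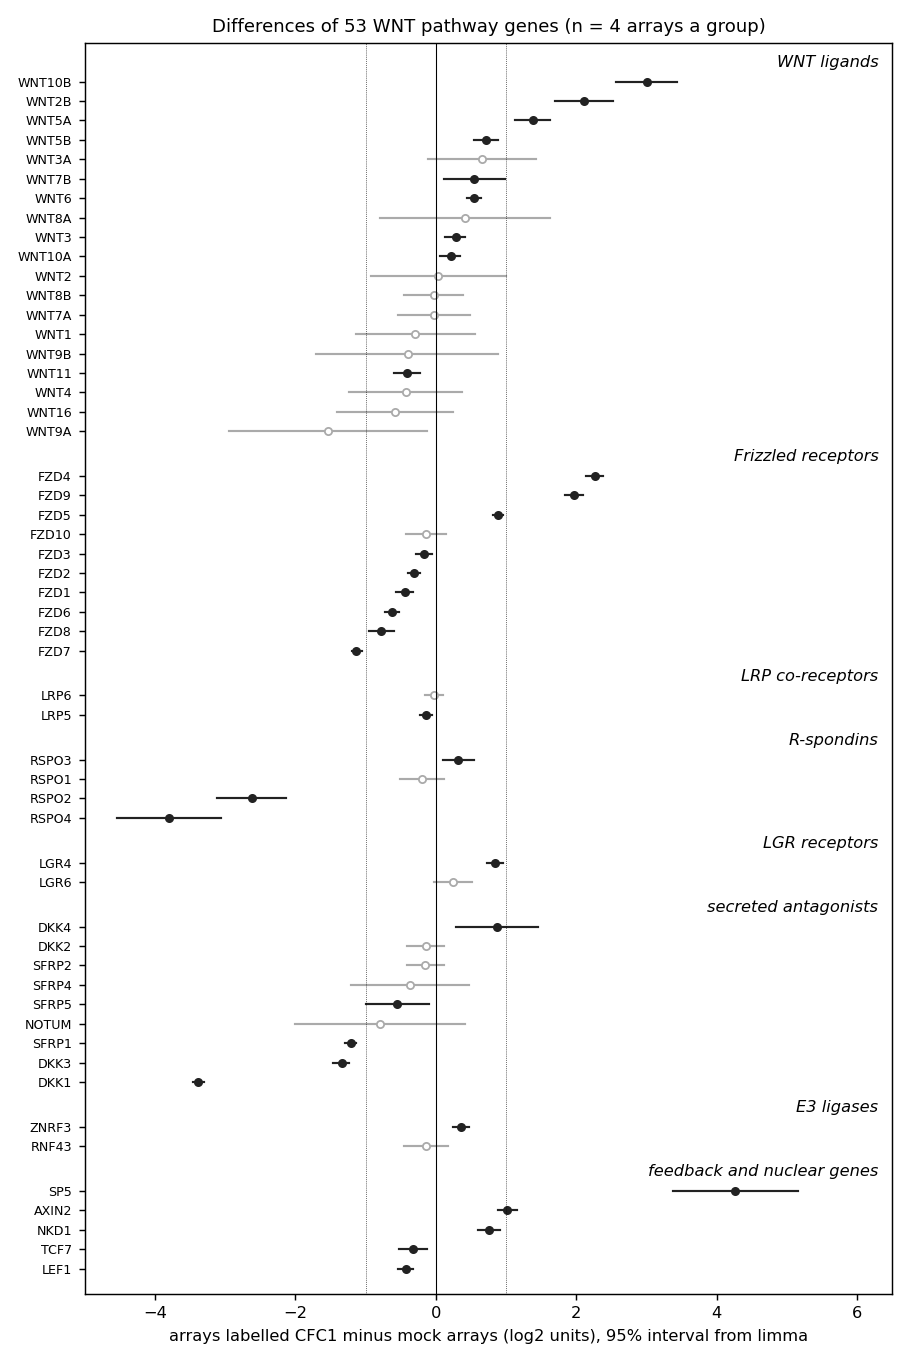
Difference of each of the 53 genes on the x axis (arrays labelled CFC1 minus mock arrays, log2 units) with its 95% interval from limma, grouped by role, filled and dark where adjusted p was below 0.05, open and grey otherwise; dotted lines mark -1 and 1. SP5 at 4.26 and RSPO4 at -3.80 are the outermost points, and the wide grey intervals belong mostly to WNT ligands.

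SP5 is shown first because its promoter, with that of DKK1, holds the motif of the TCF and LEF factors. The letters CTTTGA, the core that these factors bind, were searched on both strands in the 250 bases before the gene start in RefSeq's promoter table (GRCh38.p14). Of the 53 genes, 35 matched this table, with 42 promoters, and 2 of the 42 (4.76%) held the motif, where 11.2% of all 35116 promoters did. Those were SP5 and DKK1, which had the largest rise and the second largest fall among the members. In the sequences, the capitals mark the motif or its reverse complement.
SP5, chr2:170715087-170715336, plus strand: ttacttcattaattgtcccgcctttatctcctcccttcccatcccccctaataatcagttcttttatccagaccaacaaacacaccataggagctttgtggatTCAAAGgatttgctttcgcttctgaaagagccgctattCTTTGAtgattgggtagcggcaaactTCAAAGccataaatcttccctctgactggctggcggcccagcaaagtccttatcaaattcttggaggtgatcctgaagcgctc
DKK1, chr10:52314031-52314280, plus strand: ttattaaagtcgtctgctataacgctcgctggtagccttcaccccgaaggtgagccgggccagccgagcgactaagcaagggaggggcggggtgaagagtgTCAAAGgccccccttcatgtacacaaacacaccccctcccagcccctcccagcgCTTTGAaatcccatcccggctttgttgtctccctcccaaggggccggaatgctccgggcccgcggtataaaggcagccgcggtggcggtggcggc
The SP5 window holds 3 copies, which begin 147, 109 and 83 bases before the start. The DKK1 window holds 2, which begin 149 and 95 bases before it. Genes with the motif thus moved in opposite directions, and a match describes only these letters.

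Of the 9 ligands that passed, 8 rose. The other 10 of the 19 did not pass, and the median difference of all 19 was 0.21. Thus 47.4% of the ligands were called, fewer than the 57.9% of all genes. WNT10B, a ligand of the canonical branch, gave -2.39, -1.95, -1.44 and -1.75 in the mock arrays and 1.04, 1.10, 1.16 and 1.16 in the arrays labelled CFC1. All 4 mock arrays lay below all 4 others, and the rise was 3.0 (SE 0.18, limma adjusted p = 3.47e-06). The mock arrays of WNT10B also spread more (SD 0.39) than the arrays labelled CFC1 (SD 0.06). WNT2B, another canonical ligand, stood at -1.40, -1.09, -1.96 and -1.49 in the mock arrays and at 0.50, 0.66, 0.54 and 0.79 in the others. The groups were well apart, with a rise of 2.11 (SE 0.18, limma adjusted p = 2.17e-05). WNT5A, best known for signals that do not pass through beta-catenin, gave -1.65, -1.79, -1.64 and -1.66 in the mock arrays and -0.29, 0.00, -0.43 and -0.51 in the others. It rose by 1.38 (SE 0.11, limma adjusted p = 1.58e-05), and the rise was 0.91 after quantile normalization.

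Smaller rises were found in 5 further ligands. WNT5B, the closest relative of WNT5A, rose by 0.72 (SE 0.074), from mock values between -0.19 and -0.02 to values between 0.43 and 0.73. WNT6 rose by 0.54 (SE 0.040), from 0.00 to 0.11 in the mock arrays to 0.55 to 0.66, and by 0.90 after quantile normalization. The groups did not overlap for either gene. WNT3 rose by 0.28, although its call was lost when arrays were centred on the negative control spot (0.42, adjusted p = 0.0775 in limma, range over alternatives 0.00128 to 0.0775). WNT10A rose by 0.21. Its call was lost without mock replicate 3 (0.18) or 4 (0.19), after centring on the array medians (0.25) and with the negative control spot (0.35), and quantile normalization gave 0.41. WNT7B rose by 0.55 as the mean of 3 probes, and its groups overlapped. Mock replicate 4, at 0.29, lay above the other mock arrays (-0.31 to -0.26), and CFC1 replicate 4, at -0.02, lay below the others of its group (0.51 to 0.58). Its call was lost without any single array other than replicate 4 of either group (0.49 to 0.51), and also with unmoderated variances. Of its 3 probes 1 was called in the fit over probes, at 0.66, and the others stood at 0.70 and 0.29.

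WNT11, a ligand known from cell movements in the embryo, was the only ligand that fell. It gave 0.69, 0.46, 0.63 and 0.61 in the mock arrays and 0.17, 0.28, 0.00 and 0.31 in the others. The groups did not overlap and the difference was -0.41 (SE 0.082, limma adjusted p = 0.00313). It shrank to -0.04 after quantile normalization (limma adjusted p = 0.797, range over alternatives 0.00275 to 0.797), and with the negative control spot it was -0.26 and not called. WNT9A was lower in every array labelled CFC1 (-0.32, -1.12, -1.06 and -0.78) than in the mock arrays (0.38, -0.13, 0.02 and 2.60), but did not pass (-1.54, limma adjusted p = 0.0630). Mock replicate 4 widened its spread, and without that array the difference was -0.91 and was called. It was also called without mock replicate 2 (-1.82), and 5 of the 18 alternatives called it in all. WNT3A stood at 0.66 and was not called, with mock replicate 1 (0.83) high among the mock arrays (the others -0.64 to -0.28). Without mock replicate 1 it stood at 0.98 and was called. Its 2 probes differed, at 1.47 and -0.15, so the mean may describe neither.

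The other 8 ligands that did not pass were WNT1 (-0.29), WNT2 (0.03), WNT4 (-0.43), WNT7A (-0.03), WNT8A (0.41), WNT8B (-0.03), WNT9B (-0.40) and WNT16 (-0.58). Among these 8, the 95% interval was widest for WNT9B (-1.70 to 0.89) and narrowest for WNT8B (-0.45 to 0.39). The highest upper bound was that of WNT8A (1.62), so all 8 intervals lay below the rises of WNT2B and WNT10B. WNT genes often lie in pairs, and 4 pairs of members are neighbours in the RefSeq gene order with no other measured gene between them. WNT10B rose by 3.0 beside WNT1 at -0.29, and WNT6 by 0.54 beside WNT10A, which rose by 0.21. WNT3 rose by 0.28 beside WNT9B at -0.40, and WNT9A stood at -1.54 beside WNT3A at 0.66. In 1 of the 4 pairs both genes were called, and there both rose. Among all 53 members, the median difference of the 10 nearest measured genes on each side ran from -0.41 to 0.60. For the 13 large differences it ran from -0.38 for SFRP1 to 0.60 for WNT5A.

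**Figure D2:**
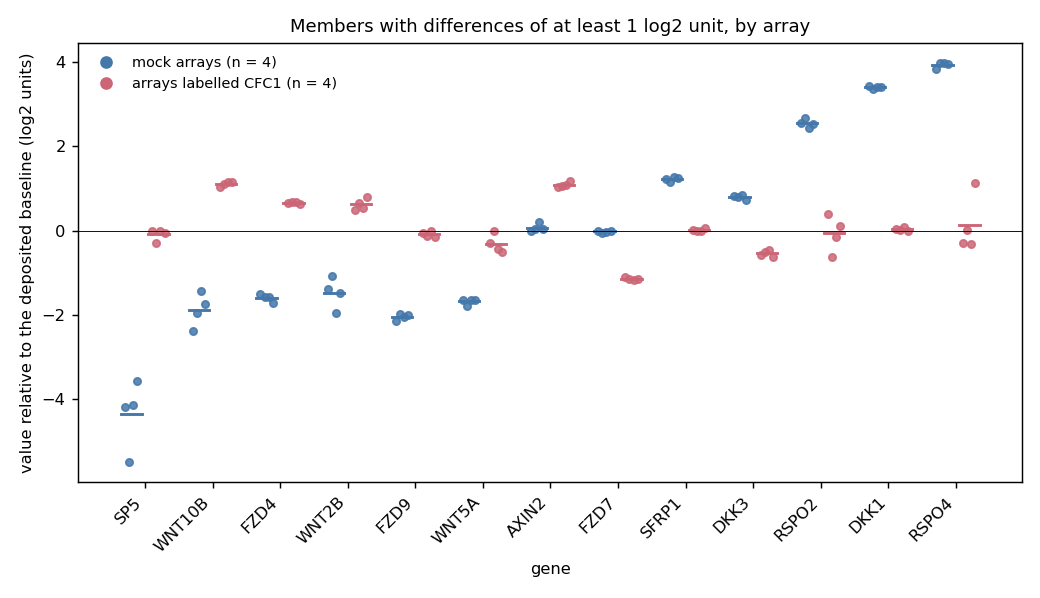
Value of each array on the y axis (log2 units relative to the deposited baseline) for the 13 members with a difference of at least 1, ordered by difference; points are arrays, bars are group means, blue is mock and red is the arrays labelled CFC1. The groups do not overlap in any of the 13, and the largest spreads are those of SP5 in the mock arrays and RSPO4 in the arrays labelled CFC1.

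The Frizzled receptors were nearly all called, in both directions. Frizzleds are the membrane receptors that bind WNT, and of the 10 genes 3 rose, 6 fell and FZD10 did not pass (-0.14). That is 90% called, where 57.9% of all genes were called, 29.7% higher and 28.2% lower. FZD4, which also binds the ligand Norrin, gave -1.51, -1.57, -1.58 and -1.73 in the mock arrays and 0.65, 0.68, 0.67 and 0.64 in the others. It rose by 2.26 (SE 0.051, limma adjusted p = 1.78e-08), many times the spread within either group. FZD9, a receptor of the nervous system, gave -2.15, -1.99, -2.06 and -2.01 in the mock arrays and -0.06, -0.12, 0.00 and -0.16 in the others. Its rise was 1.96 (SE 0.053, limma adjusted p = 4.50e-08). FZD5 rose by 0.88 (SE 0.030), from mock values of -0.93 to -0.87 to values of -0.04 to 0.00.

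FZD7, a receptor studied in stem and tumour cells, had the largest fall among the Frizzleds. It stood at 0.00, -0.05, -0.03 and 0.00 in the mock arrays and at -1.11, -1.16, -1.18 and -1.14 in the others. The groups were far apart, with a difference of -1.13 (SE 0.032, limma adjusted p = 5.96e-08), and quantile normalization made it -1.79. FZD8 fell by 0.78 (SE 0.076), from 0.62 to 1.0 in the mock arrays to 0.00 to 0.05, and by 0.45 after quantile normalization. FZD6 fell by 0.62 (SE 0.042), from -0.07 to 0.00 to values of -0.77 to -0.62. FZD1 fell by 0.44, FZD2 by 0.31 and FZD3 by 0.17, with no overlap in any of the 3. These 3 calls depended on the scaling of the arrays. That of FZD1 was lost with the negative control spot (-0.30), and quantile normalization gave -0.29. That of FZD2 with the negative control spot (-0.17) and after quantile normalization (-0.10). The call of FZD3 was lost in all 4 scalings tried (-0.16 to -0.02).

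The LRP co-receptors hardly differed. LRP6 was not called, at -0.03 (95% interval -0.16 to 0.10). LRP5 was called at -0.14 (SE 0.035), from -0.09, -0.05, -0.02 and 0.00 in the mock arrays to -0.20, -0.16, -0.23 and -0.16. Control spots with no human target differed by about as much. The negative control spot 3xSLv1 stood at -0.15 between the groups and the dark corner spots at -0.11. With the arrays centred on that control spot the difference of LRP5 was 0.00, and its call was lost in all 4 scalings tried.

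R-spondins, secreted proteins that bind LGR receptors and keep Frizzleds on the cell surface, held 2 of the largest falls. RSPO4 gave 3.84, 3.99, 3.97 and 3.96 in the mock arrays and -0.30, 0.02, -0.31 and 1.14 in the others. It fell by 3.80 (SE 0.31, limma adjusted p = 1.98e-05). RSPO2 gave 2.55, 2.68, 2.44 and 2.54 in the mock arrays and 0.40, -0.63, -0.16 and 0.12 in the others, and fell by 2.62 (SE 0.21, limma adjusted p = 1.51e-05). For both genes the mock arrays lay close together (SD 0.07 and 0.10) and the arrays labelled CFC1 spread out (SD 0.69 and 0.44). The table holds no background flags, so how near to background the dimmer group lay is not known. RSPO3 rose by 0.32 as the mean of 2 probes, of which 1 was called (0.79) and the other stood at -0.15. Its call was lost without CFC1 replicate 1 (0.26) or mock replicate 4 (0.30). RSPO1 did not pass (-0.20).

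Of the receptors LGR4 and LGR6 and the ligases RNF43 and ZNRF3, on which R-spondins act, LGR4 and ZNRF3 passed and rose. LGR4, an R-spondin receptor, rose by 0.84 (SE 0.046), from -0.31, -0.35, -0.38 and -0.39 to 0.40, 0.47, 0.48 and 0.58. LGR6, its relative, was not called (0.25, 95% interval -0.03 to 0.52). ZNRF3, an E3 ligase that removes Frizzleds from the surface and is itself a WNT target, gave -0.42, -0.45, -0.31 and -0.32 in the mock arrays and -0.06, -0.05, 0.00 and 0.05 in the others. It rose by 0.36 (SE 0.048, limma adjusted p = 3.16e-04), and both of its probes were called (0.33 and 0.39). RNF43, a ligase of the same kind, gave -0.10, -0.23, -0.19 and 0.26 in the mock arrays and -0.19, -0.43, -0.20 and 0.00 in the others, and did not pass (-0.14). The groups of RNF43 overlapped.

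Among the secreted antagonists 4 of 9 fell and 1 rose, with a median of -0.55. That is 55.6% called, where 57.9% of all genes were. DKK1, which blocks LRP5 and LRP6 and is also a WNT target, gave 3.44, 3.37, 3.42 and 3.41 in the mock arrays and 0.03, 0.01, 0.08 and 0.00 in the others. Its fall of 3.38 (SE 0.033, limma adjusted p = 8.22e-10) had the smallest adjusted p of all members. DKK3, a DKK relative that differs in its action from DKK1, gave 0.82, 0.80, 0.85 and 0.72 in the mock arrays and -0.58, -0.51, -0.46 and -0.63 in the others. It fell by 1.34 (SE 0.049), and its 2 probes gave -1.45 and -1.23. SFRP1, a decoy that binds WNT outside the cell, gave 1.22, 1.16, 1.27 and 1.24 in the mock arrays and 0.01, 0.00, 0.00 and 0.05 in the others, a fall of 1.21 (SE 0.034). The groups of these 3 genes were far apart beside their spread.

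DKK4 rose by 0.87 (SE 0.25, limma adjusted p = 0.0177), although its groups overlapped. It stood at -0.81, -0.94, -0.89 and 0.00 in the mock arrays and at 0.57, 0.17, -0.19 and 0.29 in the others. Mock replicate 4 was the array that reached into the other group. SFRP5 fell by 0.55 (limma adjusted p = 0.0419), with overlap, and 13 of the 18 alternatives lost its call. Among these were leaving out mock replicate 2 (-0.38), mock replicate 3 (-0.55), mock replicate 4 (-0.57), CFC1 replicate 1 (-0.57), CFC1 replicate 2 (-0.49) or CFC1 replicate 3 (-0.51). The antagonists DKK2 (-0.14), SFRP2 (-0.15), SFRP4 (-0.37) and NOTUM (-0.79) did not pass. NOTUM, an enzyme that strips the lipid from WNT, gave 0.44, 1.45, -0.40 and 1.58 in the mock arrays and -0.30, -0.54, -0.14 and 0.91 in the others. Its 2 probes stood at -1.43 and -0.15.

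Of the 5 feedback and nuclear genes SP5, AXIN2 and NKD1 rose and LEF1 and TCF7 fell. All 5 were called, where 57.9% of all genes were. Targets outside this set went both ways, as ZNRF3 rose by 0.36 and DKK1 fell by 3.38. Of 12 other target genes 5 rose, 1 fell and 6 did not pass, or 50% called. SP5, which represses other WNT targets, gave -4.19, -5.50, -4.14 and -3.58 in the mock arrays and -0.02, -0.29, 0.00 and -0.05 in the others. Every mock array lay far below every other array, and the rise of 4.26 (SE 0.38, limma adjusted p = 2.88e-05) came with a wide mock spread (SD 0.81). AXIN2, a scaffold of the beta-catenin breakdown complex and a widely used target, gave 0.00, 0.04, 0.20 and 0.03 in the mock arrays and 1.03, 1.05, 1.08 and 1.17 in the others. It rose by 1.01 (SE 0.057, limma adjusted p = 2.05e-06), and its 2 probes gave 0.96 and 1.07. NKD1, a feedback inhibitor that binds Dishevelled, gave -0.06, 0.10, 0.24 and 0.00 in the mock arrays and 0.88, 0.82, 0.84 and 0.79 in the others. It rose by 0.76 (SE 0.067), and by 1.21 after quantile normalization.

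LEF1, a DNA-binding partner of beta-catenin, gave 0.49, 0.56, 0.43 and 0.57 in the mock arrays and 0.00, 0.13, 0.07 and 0.12 in the others. It fell by 0.43 (SE 0.048, limma adjusted p = 1.05e-04) with no overlap. TCF7, a factor of the same family, gave 0.56, 0.37, 0.30 and 0.49 in the mock arrays and 0.03, 0.03, 0.04 and 0.30 in the others, and fell by 0.33 (SE 0.085) with overlap. CFC1 replicate 4 was the array of TCF7 that stood with the mock group. Of its 2 probes 1 was called (-0.39), and the other was not (-0.27). Both calls were lost after quantile normalization (LEF1 -0.13, TCF7 -0.05) and with the negative control spot (LEF1 -0.28, TCF7 -0.18).

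**Figure D3:**
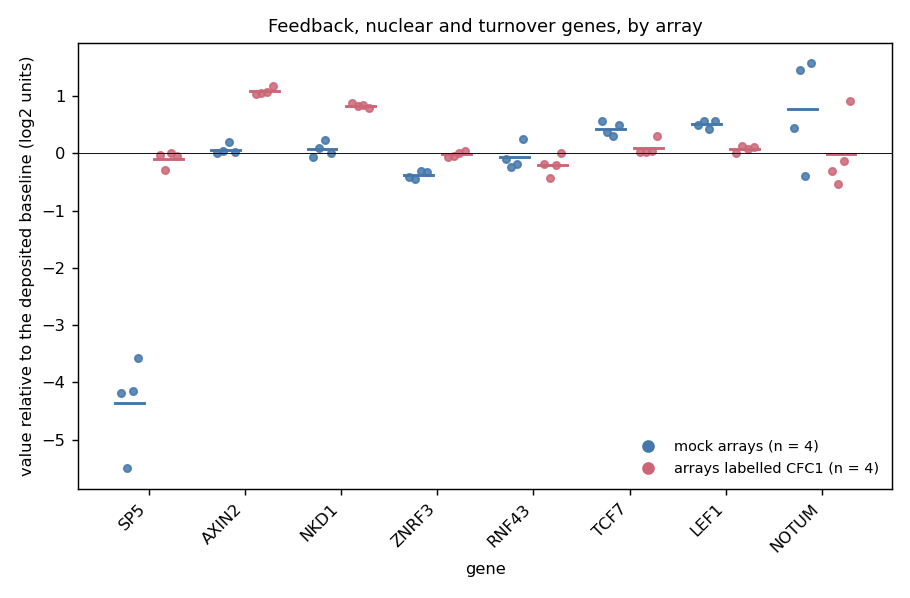
Value of each array on the y axis (log2 units relative to the deposited baseline) for feedback, nuclear and turnover genes on the x axis; points are arrays, bars are group means, blue is mock and red is the arrays labelled CFC1. SP5, AXIN2, NKD1 and ZNRF3 are higher in all 4 arrays labelled CFC1, LEF1 is lower, and the groups of RNF43, TCF7 and NOTUM overlap.

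Which group lay nearer to the deposited baseline differed among these genes. In 11 of the 13 large differences the mean of the arrays labelled CFC1 lay nearer to 0, as for DKK1 (0.03 beside a mock mean of 3.41), SFRP1 (0.02 beside 1.22) and SP5 (-0.09 beside -4.35). That is 84.6%, where the share was 80.6% among all genes with such a difference. In AXIN2 and FZD7 the mock mean lay nearer instead, at 0.07 and -0.02. Among all called members the arrays labelled CFC1 lay nearer in 64.7%, and among all called genes in 72.9%. Because the baseline is not stated, this does not show which group changed.

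A set of members carried the array pattern of spots that have no human target. After each probe was set to its own mean over the 8 arrays, 8 of the 65 member probes (12.3%) lay within 0.1 log2 units (root mean square over arrays) of the negative control spot 3xSLv1. Of all 50599 probes 12.7% did. They were the probes of DKK2, FZD10, RNF43, RSPO1 and SFRP2, and 1 of the 2 probes of each of NOTUM, RSPO3 and SFRP4. Their distances ran from 0.0264 to 0.0811, and the next member probe was that of LRP5 at 0.154. Their differences ran from -0.20 to -0.13, near the -0.15 of the control spot, and limma called none of the 8, with 0 at an unadjusted p below 0.05. Of the 6429 such probes in the table it called 0, with 2 at an unadjusted p below 0.05. These probes were picked by their likeness to the control spot, whose groups overlap. Their differences and the lack of calls follow largely from that choice and are no separate result. The shared pattern was highest in replicate 4 of each group, where the control spot stood at 0.24 in mock and -0.02 in CFC1. The control spot was lowest in CFC1 replicate 2, at -0.39. The probes of DKK2 (-0.36) and SFRP2 (-0.32) were lowest in CFC1 replicate 3 instead. The limit of 0.1 was chosen after these values were seen, and whether these transcripts were present was not tested.

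The scaling of the arrays moved members with small and with large differences. Quantile normalization moved 11 called members by over 1.5 times, FZD7 and WNT5A among them. Relative to the deposited values, differences moved by a median of 0.09 after quantile normalization, 0.04 with arrays centred on their medians, 0.10 with the E1A spike-in spots and 0.15 with the negative control spot. Among the members 18 rose and 16 fell as deposited. After quantile normalization 19 rose and 11 fell, and with the negative control spot 16 rose and 9 fell. Over all genes the share of calls that were higher was 51.3% as deposited, 60.6% after quantile normalization and 62.9% with the negative control spot.

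**Figure D4:**
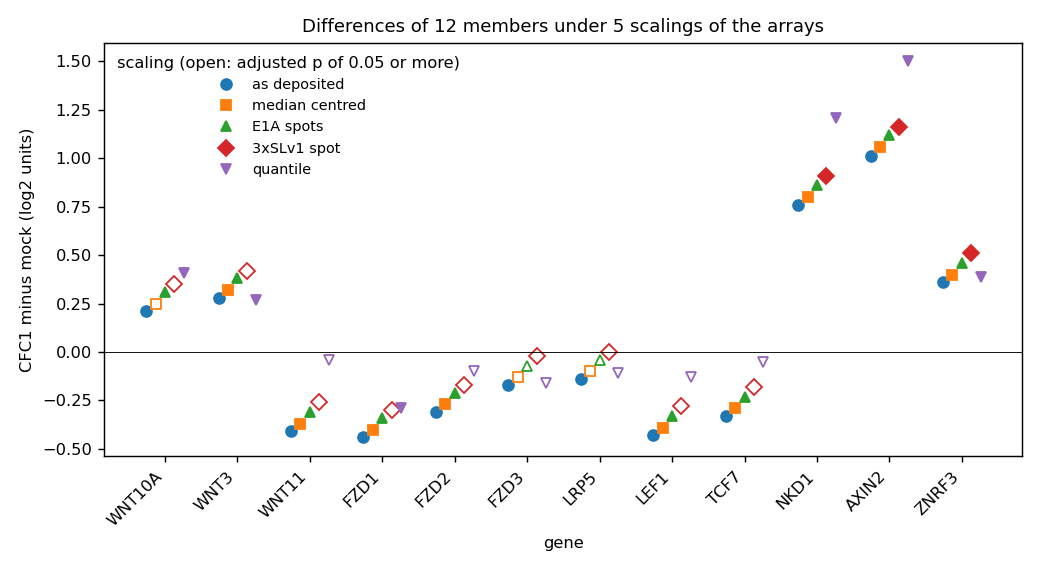
Difference (arrays labelled CFC1 minus mock, y axis, log2 units) of 12 members (x axis) under 5 scalings of the arrays, filled where limma's adjusted p was below 0.05 and open otherwise. AXIN2, NKD1 and ZNRF3 stay above 0 and called, while LRP5 moves from -0.14 to 0.00 and WNT11 from -0.41 to -0.04.

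Of 76 measured genes from 7 lists of other WNT pathway genes, 29 rose and 28 fell, 75.0% called beside 57.9% of all genes. These lists were chosen with earlier results of these data known. Their shares, together or for any single list, therefore only describe the genes listed and are no test of the pathway. The lists had up to 4 called genes named by size. In the cytoplasm, where beta-catenin is held or destroyed, 5 of 16 genes rose and 7 fell (75% called), none by 1 or more. AXIN1, the scaffold related to AXIN2, rose by 0.80, and FRAT2, which holds the kinase GSK3 away from the complex, by 0.73. FRAT1, its relative, fell by 0.99 and BTRC, which marks beta-catenin for breakdown, by 0.75 (0.35 after quantile normalization for BTRC and 0.61 for FRAT1). CTNNB1, the gene of beta-catenin, named here after its value was seen, was not called at -0.02 (95% interval -0.10 to 0.05). All 12 nuclear partners passed, 4 higher and 8 lower. The corepressor TLE1 fell by 2.47 (6 probes from -3.34 to -1.10) and TCF7L1, a mostly repressive TCF, by 1.35 (0.87 after quantile normalization). BCL9L, a beta-catenin coactivator, rose by 1.32 and TLE2, another corepressor, by 1.31.

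Further lists held genes that act in secretion, outside the cell or at its surface. WLS, which carries WNT to the surface, fell by 1.34 (3 probes from -1.75 to -0.83), and PORCN, the enzyme that adds the lipid, rose by 0.66. The other 2 of these 4 genes did not pass, so that 50% were called, where 57.9% of all genes were. Among other receptors 2 of 12 rose and 5 fell, or 58.3% called, close to the share of all genes. KREMEN2, a receptor for DKK proteins, rose by 3.69, and the R-spondin receptor LGR5 fell by 2.63, opposite to LGR4. TSPAN12, which works with FZD4, fell by 2.28, opposite to FZD4, and GPC3, a cell-surface glypican, fell by 3.12. Among other secreted or membrane-bound antagonists 4 of 9 rose and 3 fell, or 77.8% called. APCDD1, a membrane-bound inhibitor and known WNT target, rose by 5.31, and DRAXIN, an axon guidance protein that also limits WNT signals, by 3.25. SOSTDC1, a BMP and WNT antagonist, fell by 2.88, and IGFBP4, an insulin-like growth factor carrier, by 2.54.

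All 11 genes of planar cell polarity, the branch that orients cells within a sheet, passed, 8 higher and 3 lower, with a median of 0.42, where 57.9% of all genes were called and 29.7% were higher. VANGL1, a membrane core component, rose by 2.53, and the cytoplasmic core component PRICKLE1 fell by 3.22, and its relative PRICKLE2 fell by 2.07. The call of PRICKLE2 was lost after quantile normalization (-1.30, limma adjusted p = 0.0640). CELSR1, a large cadherin of the same core, rose by 2.06, but its 4 probes ran from 0.09 to 6.32, so the mean may describe none of them, and their median gave 1.02. Not all 4 were called in the fit over probes (adjusted p = 0.79 in limma for the weakest). Of 12 other target genes 5 rose, 1 fell and 6 did not pass, or 50% called. ASCL2, a transcription factor of intestinal stem cells, rose by 2.87, the receptor EPHB3 by 0.71 and the nuclear receptor PPARD by 0.56. MYC fell by 1.08, with probes at -1.42 and -0.74, of which not all were called in the fit over probes.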

How the data were processed

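The values come from the series table that the authors deposited and were taken to be log2 values, made from 8 one-color Agilent arrays of Cyanine3-labelled total RNA, per the labels' protocols. The sources used here do not give the feature extraction, background treatment, scaling, baseline or logarithm base. Precision is limited by the number of arrays. Leaving out 140 control spots gave 50599 probes, of which 31993 had 1 gene symbol in the annotation given. The other 18606, with no symbol or with more than 1, were not named. Symbols were updated through the RefSeq gene table of GRCh38.p14 by accession for 28419 probes, by symbol for 3072 and by synonym for 480, while 22 kept their name. A gene's probes were averaged.

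limma 3.58.1 in R 4.3.3 (lmFit, eBayes, 2 groups of 4 arrays, equal weights) gave two-sided p-values, Benjamini-Hochberg adjusted over 21524 genes. The model was tested on simulated data. Python 3.11.15, numpy 2.4.6 and pandas 2.3.3 made the other summaries. Members with a called difference of at least 1 and no overlap, and AXIN2, NKD1, LEF1, TCF7, SP5, NOTUM, RNF43 and ZNRF3, are given by array, and up to 4 called genes are named from each pathway list. The members and lists were chosen with earlier results of these data known. The alternatives were the replicate number as a block, 4 scalings, array weights, a variance trend, unmoderated variances, a fit over probes (a gene counted as called when all its probes were called in 1 direction), the median of a gene's probes and leaving out each array. Centring on the negative control spot was added after the data were seen. Alternatives of background correction, a filter on dim probes and the slide could not be run on this table. Some listed marker genes were not analysed here.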

Additional observations from a re-analysis of the deposited data

Results flagged for a closer look

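Among 106 groups of 4 arrays, 2 for each of the 53 genes, 12 held an array that stood apart from the other three by more than Dixon's limit, where chance alone flags about 1 group in 20. In 8 of the 12 that array was replicate 4. Mock replicate 4 was high for DKK4 (0.00, the others -0.94 to -0.81), WNT2 (0.73, the others -0.34 to -0.18) and WNT7B (0.29, the others -0.31 to -0.26). CFC1 replicate 4 was high for WNT2 (1.14, the others -0.43 to -0.26), SFRP4 (0.62, the others -0.51 to -0.33) and TCF7 (0.30, the others 0.03 to 0.04). It was low for FZD6 (-0.77, the others -0.65 to -0.62) and WNT7B (-0.02, the others 0.51 to 0.58). The negative control spot was also highest in replicate 4 of both groups, and the part of this in the values was not tested.

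CFC1 replicate 3 was high for WNT8A (1.98, the others -0.42 to -0.05), and mock replicate 3 was low for LGR6 (-0.36, the others -0.11 to -0.09). The remaining 2 stood apart by little in size, CFC1 replicate 2 for FZD8 (0.00, the others 0.04 to 0.05) and mock replicate 2 for WNT5A (-1.79, the others -1.66 to -1.64).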

How the results depend on the processing

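Of the 34 called members 22 kept their call and direction under all 18 alternatives, and 12 lost the call in at least 1. A further 3 members (WNT3A, WNT9A and SFRP2) were called in at least 1 alternative though not as deposited. Leaving out 1 array at a time gave 16 to 18 members higher and 15 to 16 lower. With arrays centred on the negative control spot, chosen after the data were seen, 16 rose and 9 fell, and LRP5 turned from -0.14 to 0.00 (limma adjusted p = 0.994, range over alternatives 0.0035 to 0.994). The cause was not tested. The CFC1 difference of -0.80 (limma adjusted p = 0.0398) lost its call with the E1A spots (-0.69), with all probes fitted (-0.80), with median centring (-0.75), with the negative control spot (-0.65), after quantile normalization (-0.74), with the replicate block (-0.80) and with unmoderated variances (-0.80). Leaving out 1 array moved the CFC1 difference between -0.94 and -0.57, and its call was lost without mock replicate 1 or 2 and without CFC1 replicate 2, 3 or 4. The adjusted p of CFC1 ran from 0.0266 to 0.136 over all 18 alternatives. The counts over all genes and over the 7 pathway lists stayed within 1.5 times of their values as deposited in every alternative run for them. Array numbers were shared between groups without a stated pairing. Deviations of same-numbered arrays correlated at 0.13, 0.2, 0.095 and 0.17, not all above 0.1, although each array correlated best with its own number. With the replicate number as a block, 17 members rose and 16 fell: SFRP5 (-0.55) and WNT7B (0.55) lost their calls and SFRP2 (-0.15) gained one. In the same fit 13200 genes were called in place of 12456. Signal over background is not known for any probe, which limits what can be said of members in the dimmer group.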
